A study of Mus musculus with 7 samples.

Results

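Transcripts of 9 Hedgehog pathway genes were followed in the cardiac region of single mouse embryos: the ligand genes Shh and Ihh, the receptor gene Ptch1, the signal transducer gene Smo, the transcription factor genes Gli1, Gli2 and Gli3, the ligand trap gene Hhip and the co-receptor gene Boc. They were taken by symbol, 9 of 48526 genes in the deposited table, and each matched 1 row. Bulk RNA sequencing gave 1 library per embryo at embryonic day 8.5, when the heart tube loops, from 3 mutant and 4 control embryos of mixed genetic background. The mutants carried 1 Hoxb1 allele with the Cre recombinase and 1 wild-type Hoxb1 allele, together with 1 conditional and 1 null allele of Nodal, the secreted signal of left identity. The controls had 2 wild-type Hoxb1 alleles and 1 conditional and 1 intact Nodal allele. Both groups therefore carry a conditional Nodal allele. The controls have neither Cre nor an altered Hoxb1 allele, so Cre, Hoxb1 dose and Nodal loss cannot be told apart, and Cre acts only in cells in which the Hoxb1 locus is or was active. Mutant 1 and controls 2 and 4 are male and carry the substage E8.5f in the file header, and mutants 2 and 3 and controls 1 and 3 are female and carry E8.5e, so sex and substage cannot be told apart either.

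Hedgehog ligands are secreted proteins that bind Ptch1, which in their absence keeps Smo inactive. Once Smo is released at the primary cilium, Gli2 and Gli3 are no longer cut into repressors and act as activators, and Gli1, Ptch1 and Hhip are transcribed as direct targets, so that the transcripts of these 3 genes are widely read as a measure of the response. In the early mouse embryo Shh is made by the node, notochord, floor plate and ventral foregut, and Ihh by the node, gut endoderm and yolk sac endoderm. Hedgehog signals from the endoderm reach heart precursors of the second heart field, and Hedgehog signalling is also required for left-right asymmetry. The comparison asks whether transcripts of this pathway differ in the heart region of embryos in which Nodal was inactivated.

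Reads recovered over all genes ran from 7155994 in control 4 to 15122057 in mutant 2, with a median of 12623459. Nodal had 0, 0 and 0 reads in mutants 1 to 3, which allows up to 0.0755 CPM (3 reads over the group), and 9, 3, 6 and 0 reads in controls 1 to 4. Control 4, the library with the fewest reads, had no Nodal read either, and the exons removed from the conditional allele are not named in the labels. Lefty2, a target of Nodal signalling, had 5, 2 and 4 reads in the mutants and 717, 397, 307 and 227 in the controls. All 18 cardiac muscle markers on the list were measured, with Myh6, a cardiac myosin heavy chain gene, at normalised read counts of 13653 to 27123 in mutants and 9674 to 35571 in controls. Labels that call the libraries separate embryos do not say whether they share a litter.

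None of the 9 Hedgehog genes passed the test between mutant and control embryos. Across all 15599 genes tested with limma, 2 genes or 0.0128% passed an adjusted p of 0.05, and 0 of the 9 were among them. At an unadjusted p under 0.05 there were 0 of 9, against 3.83% of all genes, and mutants lay entirely above or below the controls for 0 of 9, against 5.78% of all genes. The edgeR test on recovered reads called 1 gene (0.00641%) and DESeq2 called 8 (0.0513%), with 0 of 9 in each. At an unadjusted p under 0.05 there were also 0 of 9 by either tool, against 3.67% of all genes with edgeR and 2.86% with DESeq2. In the authors' deposited table of all genes 0 of the 9 had a p under 0.05. By limma the difference was positive for 8 of 9, against 51.7% of all genes, and its median on the log2 scale was 0.14, against 0.0058 over all genes tested. Boc, 1 of those 8, was negative with edgeR (-0.088) and DESeq2 (-0.083). Tissue marker lists were uneven by genotype too: the difference was positive for 16 of 17 neural tube and 12 of 13 somite genes. It was positive for 8 of 24 foregut and pharyngeal endoderm, 7 of 19 second heart field and 0 of 18 cardiac muscle genes. The part of tissue content in the direction of the 9 was not tested. What the values did show was a difference between embryos within each genotype: mutants 2 and 3 and control 3 were the 3 highest libraries for 6 of the 9, Shh, Ptch1, Smo, Gli1, Gli2 and Boc. Those same libraries were the 3 highest for 9.69% of all genes tested, a pattern that was noted after the values were seen. The third highest library exceeded the fourth by 1.62-fold for Shh, 1.55 for Gli1, 1.29 for Boc and 1.26 for Ptch1. For Gli2 (1.12-fold) and Smo (1.06-fold) the gap was small.

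**Figure D1:**
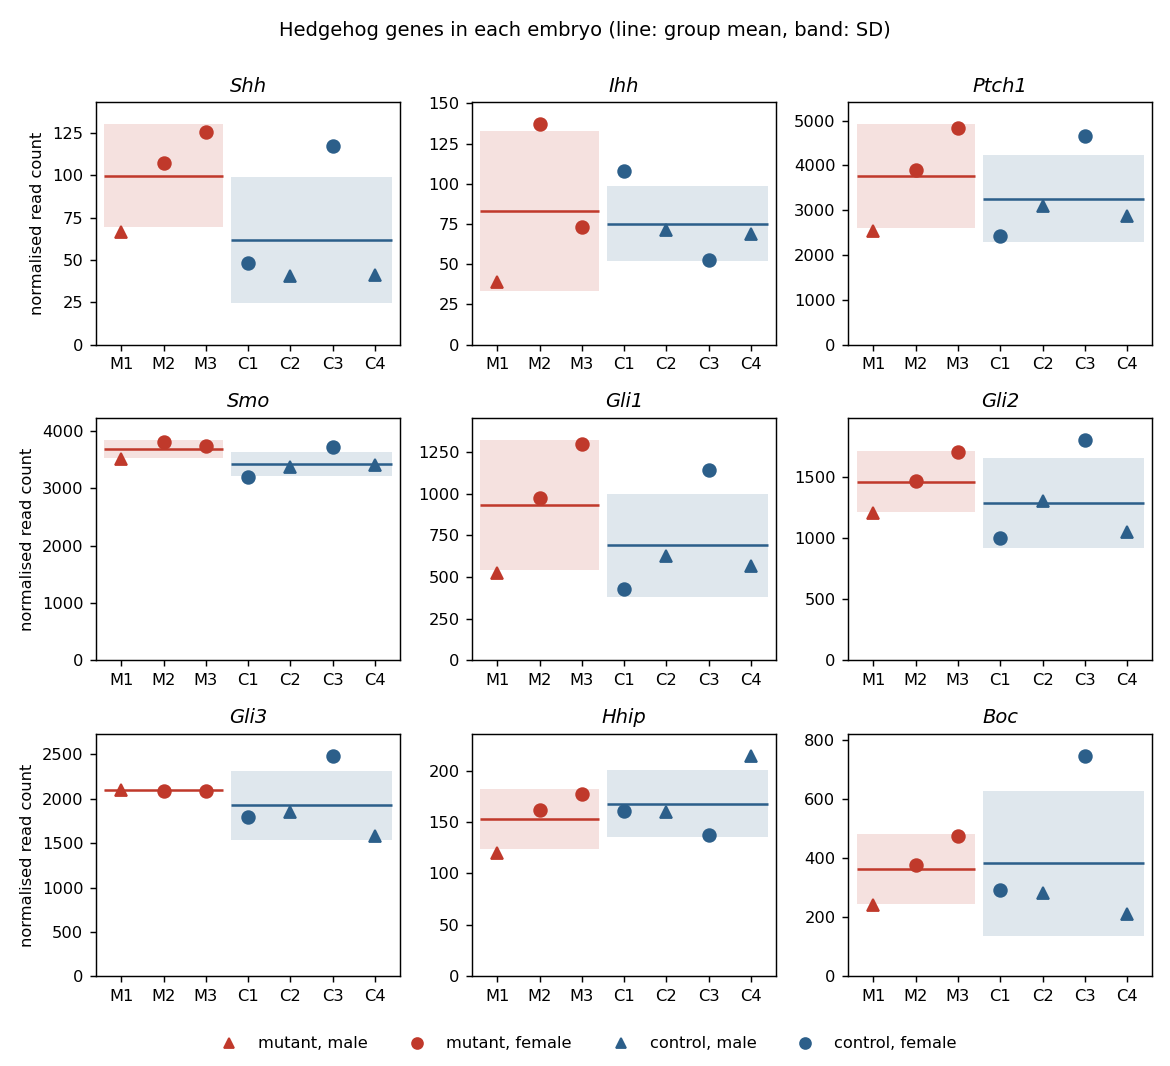
Normalised read count (vertical axes, each starting at 0) of the 9 Hedgehog genes in mutants 1 to 3 (M1 to M3) and controls 1 to 4 (C1 to C4), with a line at each group's mean and a band of 1 SD. Triangles are male and circles female embryos. For Shh, mutants sit at 66.4 to 126 and controls at 40.3 to 117, with control 3 among the mutants.

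The ligand gene Shh (ENSMUSG00000002633, GRCm38 chromosome 5, 28456815 to 28467256, minus strand, protein coding) had the largest difference of the 9. Its normalised read count was 66.4, 107 and 126 in mutants 1 to 3, against 48.4, 40.3, 117 and 40.9 in controls 1 to 4. Controls 1, 2 and 4 lay below every mutant, and control 3 lay above 2 of the 3 mutants. The group means were 99.8 ± 30.4 (SD, n = 3) in mutants and 61.8 ± 37.3 (SD, n = 4) in controls, a log2 difference of 0.79 (SE 0.40, 95% interval -0.13 to 1.71, limma adjusted p = 0.967). The interval runs from a ratio of 0.911 to one of 3.28, so a change of more than 3-fold upward is within it. These values rest on 68, 141 and 139 reads in mutants and on 56, 44, 105 and 25 reads in controls. The authors' deposited table gives Shh a ratio of 1.62 and a p of 0.101. In size, the log2 difference of Shh exceeded that of 97.5% of the genes tested, and it was the 1 member beyond 0.5 either way, as 6.98% of all genes were.

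Ihh (ENSMUSG00000006538, chromosome 1, 74945315 to 74951672, minus strand, protein coding) encodes the other ligand of the pair. It had 39.1, 137 and 73.3 in mutants 1 to 3, against 108, 71.5, 52.6 and 68.7 in controls 1 to 4. Mutants held both the highest and the lowest library, and all controls fell between them. The means were 83.1 ± 49.7 (SD, n = 3) in mutants and 75.2 ± 23.4 (SD, n = 4) in controls, and the log2 difference was 0.012 (SE 0.41, 95% interval -0.93 to 0.96, limma adjusted p = 0.998). Its sign turned without mutant 2 (-0.43), control 3 (-0.14) or control 4 (-0.015), so no direction can be given. The order of embryos differed from that of Shh: control 3, high in Shh, had the second lowest Ihh value.

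Per length, the balance of the ligands differed more between embryos than between genotypes. On the TPM scale, computed from recovered reads and the exon length of each gene, Shh stood at 6.81, 11.6 and 13.5 in mutants and at 5.03, 4.25, 12.4 and 4.05 in controls. Ihh stood at 3.74, 13.8 and 7.33 TPM in mutants and at 10.5, 7.04, 5.18 and 6.35 TPM in controls. The ratio of Shh to Ihh was thus 1.82, 0.839 and 1.84 in mutants and 0.480, 0.604, 2.39 and 0.637 in controls, above 1 in 2 mutants and 1 control. The third ligand gene, Dhh, had at most 3.67 normalised reads in any library and was not tested.

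The receptor gene Ptch1 (ENSMUSG00000021466, chromosome 13, 63508328 to 63573598, minus strand, protein coding) is also induced by the signal that its protein restrains. It had 2548, 3895 and 4847 in mutants 1 to 3, against 2417, 3099, 4657 and 2868 in controls 1 to 4. Mutant 1 was lower than 3 of the 4 controls, and control 3 was higher than mutants 1 and 2. The log2 difference was 0.20 (SE 0.26, 95% interval -0.40 to 0.80, limma adjusted p = 0.967), with means of 3763 ± 1155 (SD, n = 3) in mutants and 3260.1 ± 973 (SD, n = 4) in controls. Without mutant 3 it was -0.0056, and without control 1 it was 0.072.

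Smo (ENSMUSG00000001761, chromosome 6, 29735503 to 29761365, plus strand, protein coding), the membrane protein that passes the signal into the cell, varied least. It had 3507, 3808 and 3738 in mutants, against 3198, 3370.1, 3716 and 3416 in controls. The highest library exceeded the lowest by 1.19-fold, against 3.53-fold for Boc. The log2 difference was 0.11 (SE 0.064, 95% interval -0.041 to 0.25, limma adjusted p = 0.967), an interval of ratios of 0.972 to 1.19.

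Boc (ENSMUSG00000022687, chromosome 16, 44485049 to 44558897, minus strand, protein coding), an immunoglobulin-family co-receptor that helps present ligand to Ptch1, varied most between embryos. It had 240.2, 376 and 474 in mutants, against 292, 281, 745 and 211 in controls. Control 3 was the highest library by far, and control 4 the lowest. The means were 363 ± 117 (SD, n = 3) in mutants and 382 ± 244 (SD, n = 4) in controls, and the authors' deposited ratio is 0.951. The log2 difference was 0.054 (SE 0.42, 95% interval -0.91 to 1.01, limma adjusted p = 0.995) and took the other sign with edgeR (-0.088) and DESeq2 (-0.083), so no direction can be given.

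Hhip (ENSMUSG00000064325, chromosome 8, 79965851 to 80058006, minus strand, protein coding), which encodes a membrane protein that binds and sequesters ligand, was the 1 gene of the 9 with a negative difference by limma. It had 120.1, 161 and 177 in mutants, against 161, 159.5, 138 and 214 in controls. The groups overlapped, with mutant 1 lowest and control 4 highest. The log2 difference was -0.14 (SE 0.19, 95% interval -0.57 to 0.30, limma adjusted p = 0.967), and without mutant 1 it was 0.028.

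The activator gene Gli1 (ENSMUSG00000025407, chromosome 10, 127329882 to 127341974, minus strand, protein coding) is itself a direct target of the signal and had the second largest difference. It had 523, 971 and 1299 in mutants 1 to 3, against 428, 626, 1139.6 and 564 in controls 1 to 4. Mutants 2 and 3 and control 3 were high, and mutant 1 lay below controls 2 and 4. The means were 931 ± 389 (SD, n = 3) in mutants and 689 ± 311 (SD, n = 4) in controls, a log2 difference of 0.43 (SE 0.38, 95% interval -0.44 to 1.31, limma adjusted p = 0.967). The value was 0.80 without mutant 1, 0.71 without control 3, 0.24 without control 1 and 0.15 without mutant 3, in each case without passing.

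Gli2 (ENSMUSG00000048402, chromosome 1, 118834132 to 119053619, minus strand, protein coding), the main activator at the start of a response, had 1207, 1466 and 1705 in mutants, against 998, 1305, 1798 and 1047 in controls. Control 3 was the highest library and control 1 the lowest. The log2 difference was 0.21 (SE 0.21, 95% interval -0.27 to 0.69, limma adjusted p = 0.967). It was 0.088 without mutant 3, 0.099 without control 1, 0.12 without control 4, 0.34 without mutant 1 and 0.38 without control 3.

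Gli3 (ENSMUSG00000021318, chromosome 13, 15463235 to 15730026, plus strand, protein coding), the main repressor where no signal is received, had 2102, 2092 and 2092 in mutants, against 1794, 1848, 2482 and 1579 in controls. The mutants lay close together, and the controls spread below and above them. The log2 difference was 0.14 (SE 0.14, 95% interval -0.17 to 0.45, limma adjusted p = 0.967), with means of 2095 ± 5.85 (SD, n = 3) in mutants and 1926 ± 389 (SD, n = 4) in controls. It was 0.27 without control 3 and 0.053 without control 4.

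**Figure D2:**
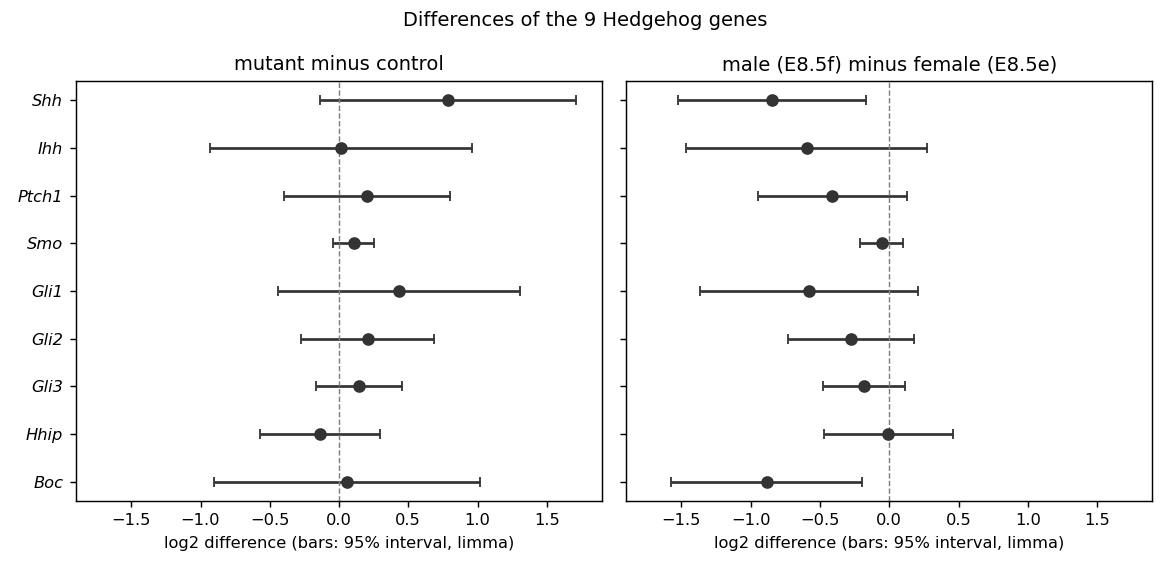
Log2 difference (horizontal axes) of each Hedgehog gene with its 95% interval from limma, for mutant minus control (left) and male minus female (right). On the left every interval spans 0, with Shh at 0.79, and on the right those of Shh (-0.85) and Boc (-0.89) lie below 0 without passing the adjusted threshold.

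The share of Gli1 among the Gli transcripts moved with the embryo. On the TPM scale Gli1 made up 20.97%, 31.1% and 35.8% of the sum of the 3 Gli genes in mutants 1 to 3 and 20.5%, 24.7%, 30.5% and 26.3% in controls 1 to 4. Gli3 made up 43.9%, 34.8% and 30.03% in mutants and 44.8%, 37.9%, 34.6% and 38.3% in controls. Mutant 1 and control 1 thus had about the same make-up, and so did mutant 2 and control 3. Gli2 kept to between 34.1% and 37.4% in all 7 libraries.

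**Figure D3:**
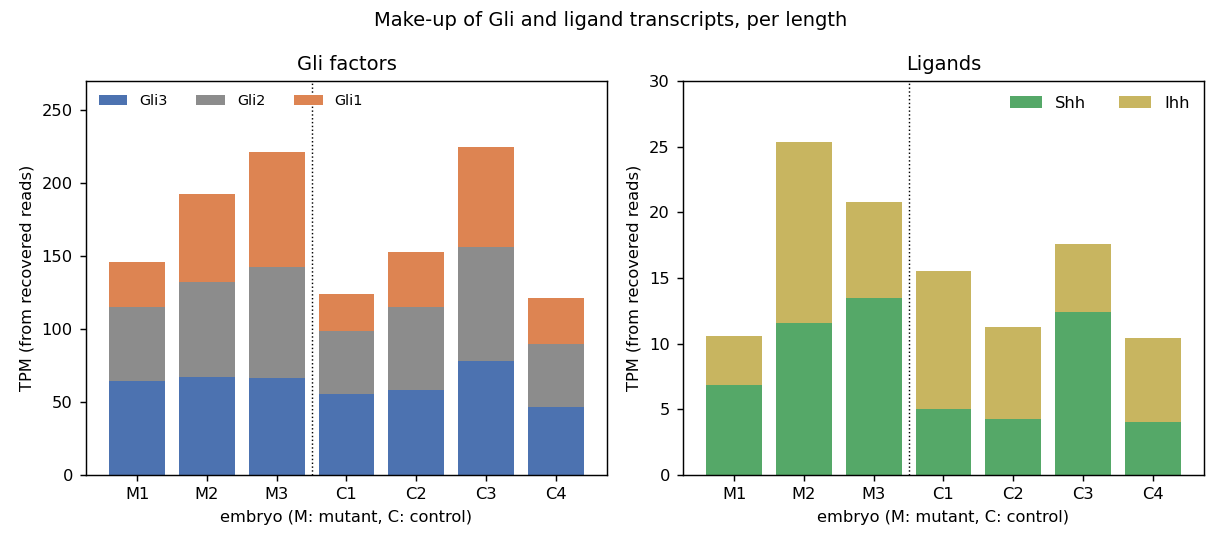
Level per length in TPM (vertical axes) of Gli1, Gli2 and Gli3 (left) and of Shh and Ihh (right), stacked for each embryo, mutants left of the dotted line and controls right of it. The Gli sum reaches 192 and 222 TPM in mutants 2 and 3 and 225 TPM in control 3, against 121 to 152 TPM in the other embryos.

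Averaged over the 7 libraries on the TPM scale, Smo was the most abundant of the 9 at 187 ± 15.7 TPM (SD, n = 7), above Ptch1 in 7 of 7 libraries. Ptch1 (73.2 ± 22.4), Gli3 (62.1 ± 10.02), Gli2 (59.2 ± 14.6) and Gli1 (47.6 ± 21.3) followed, with overlapping ranges. Ptch1 exceeded Gli3 in 5 of 7 libraries, Gli3 exceeded Gli2 in 5 of 7 and Gli2 exceeded Gli1 in 6 of 7. Boc (25.2 ± 12.8) lay below Gli1 and above Shh in 7 of 7. Shh (8.23 ± 4.11), Ihh (7.71 ± 3.40) and Hhip (5.29 ± 0.905) formed the low end, with Shh above Ihh in 3 of 7 libraries and Ihh above Hhip in 5 of 7. Exon length is the union over annotated transcripts and reaches 14185 bases for Ptch1, so the TPM of a gene whose main transcript is shorter is too low.

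Male embryos, which carry the substage label E8.5f, had a lower mean log2 level than female embryos for 8 of 9 genes, with 0 of 9 called by limma. Hhip was the exception, with mean log2 levels of 7.33 in males and 7.32 in females, and its fitted difference with genotype as a covariate was -0.0086 (SE 0.20). The fitted difference was positive for 0 of 9, that of Hhip being at 0 within its error, and for 51.6% of all genes. In that fit, with genotype as a covariate, 7 genes or 0.0449% passed. Boc was 240.2, 281 and 211 in the 3 male embryos, against 376, 474, 292 and 745 in the 4 female embryos, the 1 of 9 whose sexes did not overlap, against 10.3% of all genes in either direction (5.64% higher in males and 4.62% lower). Its log2 difference was -0.89 (SE 0.30, 95% interval -1.58 to -0.19, limma adjusted p = 0.413). That of Shh was -0.85 (SE 0.29, 95% interval -1.52 to -0.17, limma adjusted p = 0.414), and these 2 of 9 had an unadjusted p under 0.05, as 10.5% of all genes did. DESeq2 called Boc (adjusted p = 0.0469) among 177 genes (1.13%), and edgeR called 0 of 9 (adjusted p = 0.440 for Boc) with 6 genes in all (0.0385%). The sizes turn on single embryos. Control 1 had the lowest Shh, Ptch1, Gli1, Gli2 and Boc values among the females, and without it limma called Gli1 (-1.02, adjusted p = 0.00897), Ptch1 (-0.71, adjusted p = 0.0110), Boc (-1.21, adjusted p = 0.0246) and Shh (-1.15, adjusted p = 0.0333), among 681 genes (4.37%). Control 3 had the highest Boc and Gli2 values among the females, and without it the differences were -0.31 for Gli1, -0.23 for Ptch1, -0.54 for Boc and -0.52 for Shh, with 0 of these 4 called.

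Libraries high in Shh, Ptch1, Gli1, Gli2 and Boc were also high in the mean of marker lists of the midline and of tissues beside the heart. These libraries were mutants 2 and 3 and control 3, all female with the substage label E8.5e. Control 1, also female and E8.5e, was not among them. The mean log2 level of the notochord and floor plate list, without Shh, was 6.62, 7.76 and 8.09 in mutants 1 to 3 and 6.25, 6.27, 7.98 and 6.45 in controls 1 to 4. Of its 18 genes 13 were measured above the filter. Its genes did not all move together, as some chosen after their values were seen show. T, the notochord transcription factor, had normalised counts of 19.5, 215 and 281 in mutants and 12.1, 17.4, 246 and 39.3 in controls, and Noto, specific to node and notochord, was at 0 in mutant 1 and controls 1, 2 and 4 and at most 5.59 elsewhere. Spon1, a floor plate matrix gene, stood at 1245, 941 and 1257 in mutants and 1201, 1619, 888 and 1651 in controls, lowest in control 3 and mutant 2. Shisa2 stood at 1020, 697 and 603 in mutants and 881, 876, 551 and 931 in controls, lowest in mutants 2 and 3 and control 3. Foxa2 ran only from 176 in control 1 to 238 in control 3. Nkx6-1, Nkx2-9 and Foxa2 of this list are also on the Gli target list, as are Foxc2, Pax1 and Pax9 of the somite list. The means of these lists thus do not separate tissue content from the response to the signal. The neural tube list, 17 of 23 genes measured, stood at 4.60, 6.94 and 7.48 in mutants and at 3.91 to 7.96 in controls, the highest again being control 3. For the somite list, 13 of 18 genes measured, the levels were 6.71, 7.25 and 7.78 in mutants and 5.60, 6.25, 7.70 and 5.99 in controls. Cardiac muscle markers went the other way, at 11.4, 10.2 and 10.6 in mutants and 11.3, 11.4, 10.03 and 11.7 in controls. With genotype as a covariate, the median log2 difference, male minus female, was -2.28 for the neural tube list and 0.87 for cardiac muscle. For the somite list it was -0.68, and for notochord and floor plate, Shh included, -0.60. Limma called 0 genes of these lists between the sexes, and tissue content was not separated from sex and substage. The foregut and pharyngeal endoderm list, 24 of 24 genes measured, stood at 8.47, 8.65 and 8.34 in mutants and 8.78, 8.64, 8.32 and 8.52 in controls, highest in control 1 and mutant 2. The second heart field list, 19 of 19 measured, stood at 9.53, 9.35 and 9.30 in mutants and 9.49, 9.65, 9.02 and 9.63 in controls, lowest in the same 3 libraries as cardiac muscle. Its Pearson correlation with Shh over the 7 libraries was -0.86 and with Boc -0.96. In bulk tissue fewer cells of a type and less RNA per cell cannot be told apart, and the part these tissues have in the Hedgehog values was not tested. Once the mean of the neural tube list entered the model, the log2 difference was 0.44 for Shh, 0.15 for Gli1, 0.0029 for Ptch1 and -0.31 for Boc, with 0 of 9 called. The neural tube list includes Nkx6-1 and Olig2, which are also on the Gli target list. That fit therefore cannot separate tissue content from the response to the signal, and nothing is drawn from it.

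**Figure D4:**
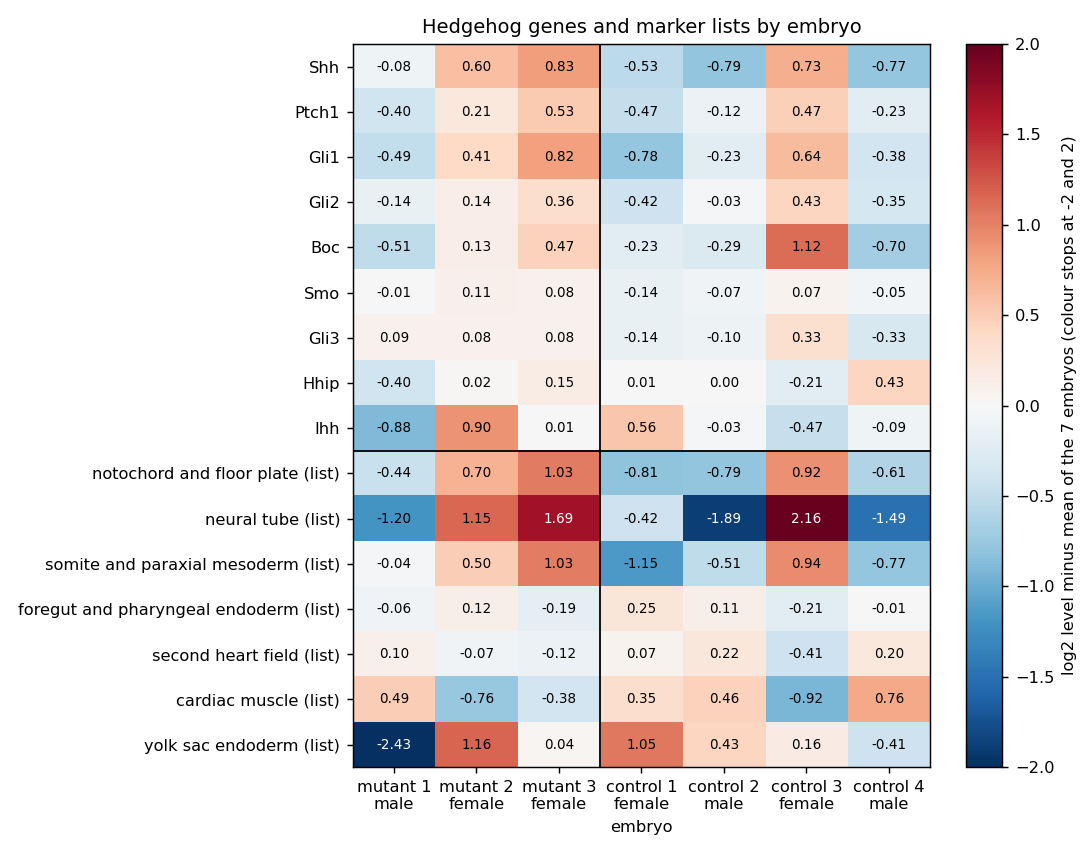
Log2 level minus the mean of the 7 embryos (colour and printed value) for the 9 Hedgehog genes (upper rows) and the mean of each marker list (lower rows), mutants left of the black line and controls right of it. Shh is above its mean in mutants 2 and 3 and control 3 (normalised counts of 107, 126 and 117), the embryos with neural tube list means of 6.94, 7.48 and 7.96. The yolk sac list was added after the values were seen.

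Gene by gene, likeness over the 7 libraries was measured as the Pearson correlation of log2 levels with 11091 other genes of moderate or high level. For Gli1 the 5 closest were Slitrk5 (0.996), Zadh2 (0.995), Hoxa3 (0.994), Ptch1 (0.993) and Zfp703 (0.992), so that another of the 9 genes ranked 4 of 11091. Gli2 stood at 0.950 to Gli1 (rank 75), Smo at 0.899 (273), Shh at 0.872 (418), Boc at 0.820 (702) and Gli3 at 0.670 (1606). Ihh (0.049) and Hhip (0.027) did not follow Gli1. For Shh the 5 closest were Nup155 (0.993), Dis3 (0.993), Msh6 (0.992), Maoa (0.986) and Clstn3 (0.986). Among the 9 genes, Smo ranked 405 for Shh, Gli1 513, Gli2 583, Ptch1 768, Gli3 785, Boc 867, Ihh 5421 and Hhip 7111. Nup155, a nuclear pore gene, moved over a far smaller range than Shh, from 1816 to 2044 normalised counts. All genes in a library share its tissue make-up, and the coefficients describe these 7 libraries.

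Ptch1 and Hhip, both known as direct Gli targets, thus followed different courses across the embryos, and the 250 bases before their RefSeq start sites (GRCm38.p6) are shown for that reason, in the direction of transcription. The Ptch1 window is chr13:63565736-63565985 and the Hhip window chr8:80058009-80058258, both on the minus strand. The Hhip window lies just outside the annotated gene, whereas the Ptch1 window lies within it, before an internal start, and other annotated Ptch1 transcripts start further upstream. The Gli motif GACCACCCA was searched on both strands in these windows extended by 50 bases past the start, and no base is in capitals because neither holds it.
Ptch1: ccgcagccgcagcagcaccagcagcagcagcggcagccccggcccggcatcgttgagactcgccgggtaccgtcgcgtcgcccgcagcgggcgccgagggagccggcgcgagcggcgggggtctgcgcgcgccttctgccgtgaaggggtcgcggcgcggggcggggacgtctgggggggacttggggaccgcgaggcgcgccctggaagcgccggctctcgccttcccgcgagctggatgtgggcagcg
Hhip: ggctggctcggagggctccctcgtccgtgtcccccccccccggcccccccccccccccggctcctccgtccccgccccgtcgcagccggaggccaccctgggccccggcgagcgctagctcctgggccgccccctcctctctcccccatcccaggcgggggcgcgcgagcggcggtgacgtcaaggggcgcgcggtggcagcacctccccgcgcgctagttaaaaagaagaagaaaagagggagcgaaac
Of the 9 genes 6 had an entry (Gli2, Gli3, Hhip, Ihh, Ptch1 and Smo), and 0 of the 6 windows of 300 bases held the motif, against 0.253% of the 32851 windows in the table. The G and C content of the printed bases was 78.4% for Ptch1 and 76.0% for Hhip, against a median of 52.4% over all windows. Both sequences were rich in CpG, with 41 and 28 in 250 bases.

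Other genes of the pathway likewise gave 0 calls in either direction by limma over all genes. Of 9 tested genes for ligand production and release, Shh and Ihh included, 6 were higher in mutants and 3 lower (median log2 difference 0.012), and of the other 7 there were 4 higher. Disp1, which releases the lipid-modified ligand from the cell, had 651, 574 and 545 in mutants, against 432, 550.1, 533 and 458 in controls (0.26, SE 0.11, limma adjusted p = 0.967). Scube2, a secreted carrier of ligand, stood at 10.7, 66.2 and 166 in mutants and 19.9, 10.1, 82.8 and 4.91 in controls, the same 3 libraries being high. Scube1 stood at -0.033 (SE 0.15) and Glg1 at 0.034 (SE 0.053).

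Of 11 receptors, co-receptors and ligand traps, 4 of the 9 genes above included, 5 were higher and 6 lower (median -0.023). The co-receptor gene Cdon, a relative of Boc, stood at -0.069 (SE 0.097), and the glypican genes Gpc4 and Gpc6 at -0.33 (SE 0.23) and -0.044 (SE 0.082).

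Of 32 cytoplasmic transducers, Gli1, Gli2 and Gli3 included, 22 were higher and 10 lower (median 0.046), and of the other 29 there were 19 higher (median 0.041). Sufu, which holds Gli proteins in the cytoplasm, stood at 0.15 (SE 0.079) and Btrc, a ubiquitin ligase subunit in Gli3 processing, at 0.15 (SE 0.092). Efcab7, which tethers the Evc complex that relays the signal from Smo in the cilium, had its 3 mutant values below all 4 control values: 34.2, 46.4 and 61.5 in mutants, against 70.8, 64.2, 77.2 and 76.9 in controls (-0.63, SE 0.22, limma adjusted p = 0.967). The authors' deposited table of selected genes lists Efcab7 with a ratio of 0.655 and p-values of 0.0236 (DESeq2), 0.0266 (edgeR) and 0.00948 (voom), none adjusted over all genes. The kinase gene Ulk3 was also without overlap, at 153, 151 and 151 in mutants and 177, 172, 167 and 206 in controls (-0.24, SE 0.11), where 2.08% of all genes had every mutant below every control.

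Of 27 ciliary transport genes 14 were higher and 13 lower (median 0.0081). Their differences lay between -0.23 for Ofd1 (SE 0.11), a basal body gene, and 0.27 for Ift57 (SE 0.19), a subunit of the intraflagellar transport complex, with Cep290 at -0.17 (SE 0.11) and Bbs1 at 0.22 (SE 0.18).

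Of 25 tested Gli target genes, 3 of the 9 genes included, 17 were higher and 8 lower (median 0.17). Ccnd2, a cyclin that drives entry into S phase, was higher in every mutant: 6272, 6209 and 7351, against 4060.2, 4765, 5575 and 4932 in controls (0.46, SE 0.11, 95% interval 0.20 to 0.71, limma adjusted p = 0.967). The authors' deposited table of selected genes gives it a ratio of 1.37. Its p-values there were 0.000241 (DESeq2), 0.000654 (edgeR) and 0.00122 (voom), none adjusted over all genes. Ccnd2 is named here for its small p in these same libraries, and 3.70% of all genes had every mutant above every control. Mycn had 2295, 2413 and 2412 in mutants and 1687, 1963, 2314 and 1957 in controls (0.27, SE 0.098), and Ccnd1 stood at 0.20 (SE 0.12). Foxd1, a forkhead factor, had 97.6, 242 and 388 in mutants and 78.6, 85.3, 321 and 49.1 in controls, high in the same 3 libraries. The list also holds targets of the neural tube and somite, whose libraries differ as given above, and the highest difference, that of Nkx6-1 (2.77, SE 1.93), is such a gene. Foxf1, a target in splanchnic mesoderm, stood at -0.28 (SE 0.27) and Osr1, a target in the posterior second heart field, at -0.25 (SE 0.27). Their values were chosen for mention after they were seen.

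**Figure D5:**
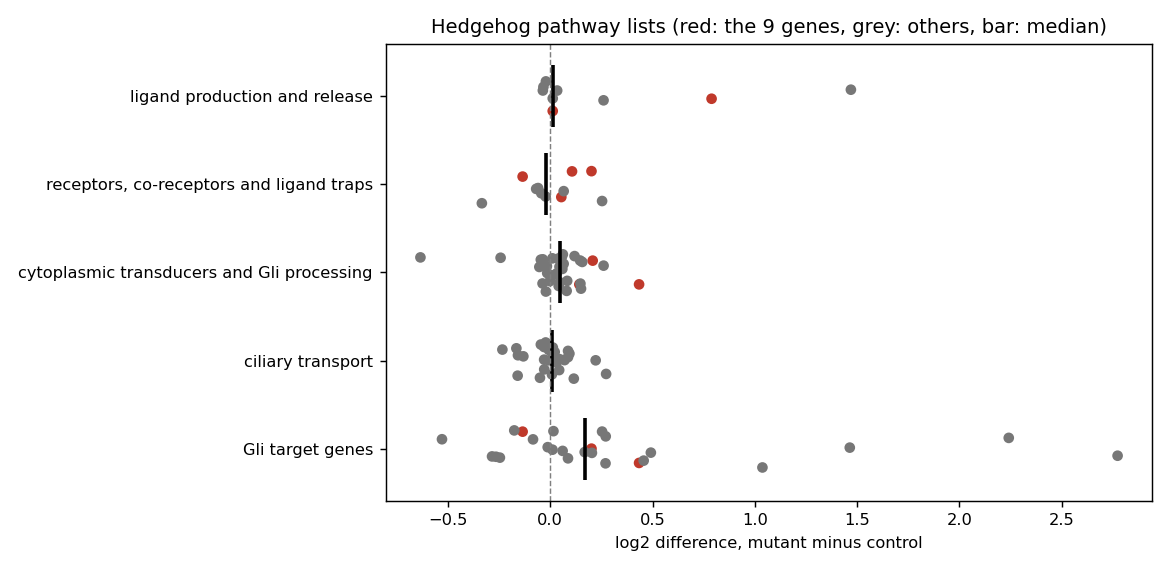
Log2 difference, mutant minus control (horizontal axis), of each tested gene in 5 lists of the Hedgehog pathway (rows), the 9 genes in red, others in grey and a bar at each list's median. The medians lie between -0.023 and 0.17, and none of the genes passed the adjusted threshold.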

How the data were processed

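RNA from the microdissected cardiac region of 7 embryos was sequenced as polyadenylated, strand-preserving libraries from 20 ng of RNA, with paired reads of 130 bases, per the labels' protocols. Per the submitters' processing notes the build was GRCm38 and the tools, with no role stated, were limma, edgeR, DESeq2, HISAT2, Subread and featureCounts. No label gives the annotation release or whether counting used strand. The authors deposited normalised signal values, which are read counts scaled by 1 factor for each library: 100% of values above 0 were whole multiples of their library's step within 0.1, so whole reads were recovered. Per the file headers, the authors' tables also hold group means of that signal, ratios of mutant to control and p-values.

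Genes that reached a normalised count of 10 in 3 or more libraries (15599 of 48526, all 9 Hedgehog genes included) were tested with limma 3.58.1 (R 4.3.3) on log2(normalised count + 1), a scale that understates changes of low genes, with Benjamini-Hochberg adjustment over all of them. Whole reads were tested with edgeR 4.0.16 and DESeq2 1.42.0. Each embryo was 1 replicate; p-values measure the spread between these embryos. TPM used GENCODE M21 exon lengths (48058 identifiers found). Antisense genes share 446 and 361 exon bases with Shh (13 and 27 reads in all libraries, against 578 of Shh) and 188 with Gli3 (119 against 14491). Tests were checked only on simulated data with the same dispersion for every gene and no pattern shared between embryos. That check does not show their power in these embryos. Named genes were the 9 members, up to 4 genes with the smallest p in each pathway list and the 5 most like Shh and Gli1; exceptions are marked, and 1 gene so chosen is not reported here. The 1 symbol Adrbk1 was not matched. Members and lists were chosen with earlier results of these data known. The alternatives were other filters, pseudocount, scaling, tools, covariates, female embryos alone and leaving out each embryo.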

Additional observations from a re-analysis of the deposited data

Results flagged for a closer look

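In 8 of 50 sets of 4 control values the highest control stood apart from the other controls by more than Dixon's 95% critical value for 4 samples, where chance flags about 1 in 20 sets, and the sets share genes and libraries. For Shh, control 3 was the one apart (a gap to the next of 0.896 of the range), and so it was for Boc (0.848). Control 3 also stood apart in the ratio of Shh to Ihh on the TPM scale (0.918), the mean log2 level of the 9 Hedgehog genes (0.855) and the target gene Foxd1 (0.867). The mean log2 levels of the Gli target list (0.841) and of the notochord and floor plate list (0.883), both without the 9 genes, were highest in control 3 in the same way. For Btrc it was control 2, at 558 against 494 to 496 in the other controls (0.976). Without control 3 the log2 difference, mutant minus control, was 1.15 for Shh (limma adjusted p = 0.176) and 0.43 for Boc (adjusted p = 0.483). The lower adjusted p is not particular to these genes. Among all 15599 genes, 2079 had a limma unadjusted p under 0.05 without control 3, against 598 with it.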

How the results depend on the processing

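None of the 9 Hedgehog genes passed in mutant against control under any of the 16 alternatives, the lowest adjusted p being 0.176 for Shh without control 3. The differences of Shh, Smo, Gli1 and Gli2 kept their sign in all 16. That of Boc turned negative with edgeR (-0.088), DESeq2 (-0.083), sex as a covariate (-0.094), adjustment for the neural tube list (-0.31) and in female embryos alone (-0.14). Ihh turned to -0.088 with sex and -0.055 with the neural tube list in the model, and in female embryos alone Gli3 was -0.013 and Hhip 0.18. Leaving out single embryos gave -0.17 to 0.43 for Boc, -0.43 to 0.46 for Ihh, -0.0056 to 0.46 for Ptch1, -0.25 to 0.028 for Hhip, 0.60 to 1.15 for Shh, 0.15 to 0.80 for Gli1, 0.088 to 0.38 for Gli2 and 0.053 to 0.27 for Gli3. The median of the 9 ran from 0.056 (neural tube list in the model) to 0.38 (without control 3). Genes called overall numbered 2, against 1 with edgeR, 8 with DESeq2, 1 with sex as a covariate, 0 in female embryos alone (186 at an unadjusted p under 0.05, limma) and 1 to 9 without single embryos, 9 being without control 3. In males against females, 1 of the 9 was called with DESeq2, and 0 to 4 without single embryos, 4 being without control 1. The cause was not tested. Shh and Ihh rest on 25 to 180 reads per library, which limits small differences. No paired analysis was possible because no label pairs embryos across the groups.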

Other observations

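Transcripts of yolk sac endoderm genes shared their highest and lowest libraries with Ihh. A list of yolk sac endoderm genes, chosen after the Ihh values were seen (14 of 16 genes measured), had a mean log2 level of 5.57, 9.15 and 8.03 in mutants 1 to 3 and 9.04, 8.42, 8.15 and 7.59 in controls 1 to 4. Mutant 2 and control 1 were the 2 highest libraries and mutant 1 the lowest for this list, as they were for Ihh. Hnf4a, a transcription factor of visceral endoderm, had normalised read counts of 19.5, 416 and 194 in mutants and 326, 251, 173 and 133 in controls. Apob, the main apolipoprotein of yolk sac lipoproteins, had 449, 6149 and 1519.6 in mutants and 5160, 3351, 1741 and 1191 in controls. The foregut and pharyngeal endoderm list was also highest in control 1 (8.78) and mutant 2 (8.65), and its Pearson correlation with Ihh over the 7 libraries was 0.65, with a Spearman rho of 0.68. Its genes were mixed, as 2 chosen after their values were seen show. Spink1 had 138, 373 and 232 in mutants and 441, 391, 166 and 262 in controls, whereas Foxa2 had 179.6, 212 and 202 in mutants and 176, 205, 238 and 182 in controls. Whether yolk sac or gut tissue contributes the Ihh reads was not tested.

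The interaction of genotype and sex rests on 1 male mutant, and nothing is drawn from it.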
